A study of Mus musculus with 38 samples.

Results

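The genes described here are 9 regulators that sit at the end of 2 signalling routes: the inhibitors of differentiation Id1, Id2, Id3 and Id4, the Notch-responsive repressors Hes1 and Hey1, the basic helix-loop-helix (bHLH) factor Atoh8 and the inhibitory SMADs Smad6 and Smad7. All 9 were matched by symbol to an Ensembl identifier in each of the 3 count tables, 9 of the 55487 genes the tables list. They were chosen on measured values: their levels and their hypoxia, co-culture and panobinostat effects in these same libraries, including the contrast between BV2 and GL261 cells, had been seen when the set was drawn up. Their levels, fold changes and calls are therefore given as a description, without p-values, and they support nothing beyond the libraries measured.

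The study sequenced polyadenylated RNA from mouse cells kept for 16 h in 21% oxygen (normoxia) or below 0.1% oxygen (hypoxia). BV2 is an immortalised microglial line, GL261 is a glioma line that here stably carried pEGFP-N1, and BMDM are wild-type primary macrophages grown out of bone marrow. In the first experiment each cell type was grown alone (monoculture) or in direct contact with the partner (co-culture), with 1 BV2 cell to 2 GL261 cells or 1 BMDM to 1 GL261 cell, and each of the 12 combinations with oxygen was sequenced 2 times, except for the BMDM co-cultures with 3 libraries each. In a second experiment BV2 cells and BMDM, without GL261 cells, received DMSO in normoxia, DMSO in hypoxia or 10 nM panobinostat, a histone deacetylase inhibitor, in hypoxia, again with 2 libraries each. BV2 cultures were kept in medium with 2% serum and BMDM in medium with 10% serum, and all cells were fixed with 3% glyoxal before RNA was taken. Each line is a single cell line, the labels call BV2 and GL261 libraries biological replicates in the first experiment and say nothing of the kind for the rest, and how co-cultured cells were parted is not given in the sources used here. For the libraries without that statement the spread may be technical. "First experiment" is a name used here. Its BV2 and GL261 libraries were counted in 1 table and its BMDM libraries in another. The labels do not say whether these were run together.

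Helix-loop-helix factors bind DNA as dimers through a basic region next to the dimerization domain. Id proteins have the dimerization domain without the basic region, so they hold E proteins in pairs that do not bind DNA, and the Id genes are classical direct targets of bone morphogenetic protein (BMP) receptors and the SMAD proteins these activate. Hes1 and Hey1 are bHLH repressors switched on by the Notch receptor through RBPJ, and Hes proteins act with Groucho corepressors. Smad6 and Smad7 are induced by BMP and TGF-β signals and feed back on the receptors, Smad6 mainly on BMP receptors and Smad7 on both kinds.

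Libraries held 9634700 to 27238933 counts in genes, so that 3 counts, taken as the floor, correspond to 0.114 to 0.332 CPM (counts scaled to the library's total). The 22 pairs of replicate libraries differed by 6.70 to 155.5 times sampling noise (chi-square per degree of freedom), and none was a copy of another. General myeloid markers were present in normoxic BV2 monocultures (Csf1r 518 and 615 CPM), but the microglial markers Sall1 and Siglech had 0 counts there and Cx3cr1 was at 0.849 and 1.77 CPM. GL261 monocultures expressed 9 of 10 glioma or glial markers and at most 4.54 summed CPM of the myeloid ones. BMDM of the second experiment held 20453 to 23237 summed CPM of 6 fibroblast or stromal markers in normoxia, against 133 to 170.0 in the first experiment. Nearly all of the higher sum came from the collagen genes Col1a1, Col1a2 and Col3a1. These markers are given again beside the results they move with.

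The stretch of genome just before the start of Atoh8 and of Smad6 is printed because Atoh8 is the gene that hypoxia moved in opposite directions in the 2 lines and Smad6 is the member measured well above the floor in BV2 but not in GL261 monocultures. Each sequence is the 250 bases before the RefSeq gene start, build GRCm38.p6, read 5′ to 3′ on the strand of the gene. Neither stretch overlaps an annotated GENCODE M21 exon, and each ends directly before the first base of its gene: Atoh8 (ENSMUSG00000037621) spans 72206177 to 72235577 of chromosome 6 and Smad6 (ENSMUSG00000036867) spans 63953076 to 64022059 of chromosome 9. Capitals mark every ACGTG or GCGTG on either strand, the core of the hypoxia response element bound by HIF proteins.

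Atoh8 chr6:72235578-72235827, minus strand: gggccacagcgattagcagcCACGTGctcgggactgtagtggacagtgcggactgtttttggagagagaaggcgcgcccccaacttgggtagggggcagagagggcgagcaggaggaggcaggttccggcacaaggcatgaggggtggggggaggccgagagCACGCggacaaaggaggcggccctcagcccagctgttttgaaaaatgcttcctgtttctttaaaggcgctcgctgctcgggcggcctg

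Smad6 chr9:64022060-64022309, minus strand: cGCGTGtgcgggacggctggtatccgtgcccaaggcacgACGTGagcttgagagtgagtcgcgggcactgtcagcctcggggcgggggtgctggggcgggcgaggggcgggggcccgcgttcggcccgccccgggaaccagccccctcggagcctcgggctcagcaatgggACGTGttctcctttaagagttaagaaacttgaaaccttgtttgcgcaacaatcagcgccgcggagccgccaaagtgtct

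In the Atoh8 stretch the core lay on both strands of the palindrome that begins 230 bases before the start, and on the opposite strand at a site that begins 88 bases before the start. In the Smad6 stretch it began at -249, -211 and -79 on the strand of the gene. One or more such cores were present in 38.6% of 32851 RefSeq promoters of this length, so holding one is common. Of the other letters searched on both strands, the SMAD element CAGAC (in 42.2% of promoters), the BMP-SMAD box GGCGCC (9.59%), the N box CACNAG bound by Hes proteins (36.7%) and the RBPJ site TGGGAA (21.6%), only an N box at -121 in Atoh8 was found in these 2 stretches. Promoters of 5 of the 9 genes were searched, Id2, Id3, Id4, Atoh8 and Smad6. Id1, Hes1 and Hey1 had no entry among the promoters used. Smad7, on chromosome 18, was left out because that chromosome was skipped. These are matches of letters and no binding was measured.

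Levels are first compared between genes per length, as TPM, which scales counts by exon length and library total, with exons from the GENCODE M21 annotation (mean ± SD, n = 2 libraries each). In normoxic BV2 monocultures Id2 led with 78.9 ± 18.4 TPM, followed by Id3 with 22.2 ± 1.34, Smad7 with 5.81 ± 1.25, Smad6 with 3.26 ± 0.771 and Atoh8 with 3.01 ± 1.13. Smad6 and Atoh8 overlapped in their values, and so did Id1 (1.30 ± 0.642), Hes1 (1.10 ± 0.385) and Hey1 (0.797 ± 0.148), which closed the order. BV2 cells thus held a single abundant Id transcript, Id2.

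In normoxic GL261 monocultures the order was Id3 (446 ± 34.7 TPM), Id1 (298 ± 77.2), Id2 (123 ± 4.69), Atoh8 (30.3 ± 2.10), Hes1 (18.6 ± 4.11), Smad7 (9.17 ± 0.200) and Hey1 (3.56 ± 2.03), with Smad6 at 3 and 0 counts. No neighbours in this order overlapped in their 2 values. In normoxic BMDM monocultures it was Id3 (1071 ± 98.9 TPM), Id1 (804 ± 14.3), Id2 (294 ± 29.4), Smad6 (58.1 ± 2.51), Smad7 (24.8 ± 1.12) and Hes1 (8.76 ± 0.449), and Hey1, Atoh8 and Id4 were each under 1 TPM. GL261 cells and BMDM thus shared the order of the 3 abundant Id genes and differed in Smad6 and Atoh8. Their libraries were counted in separate tables, and these levels were not tested against each other.

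**Figure D1:**
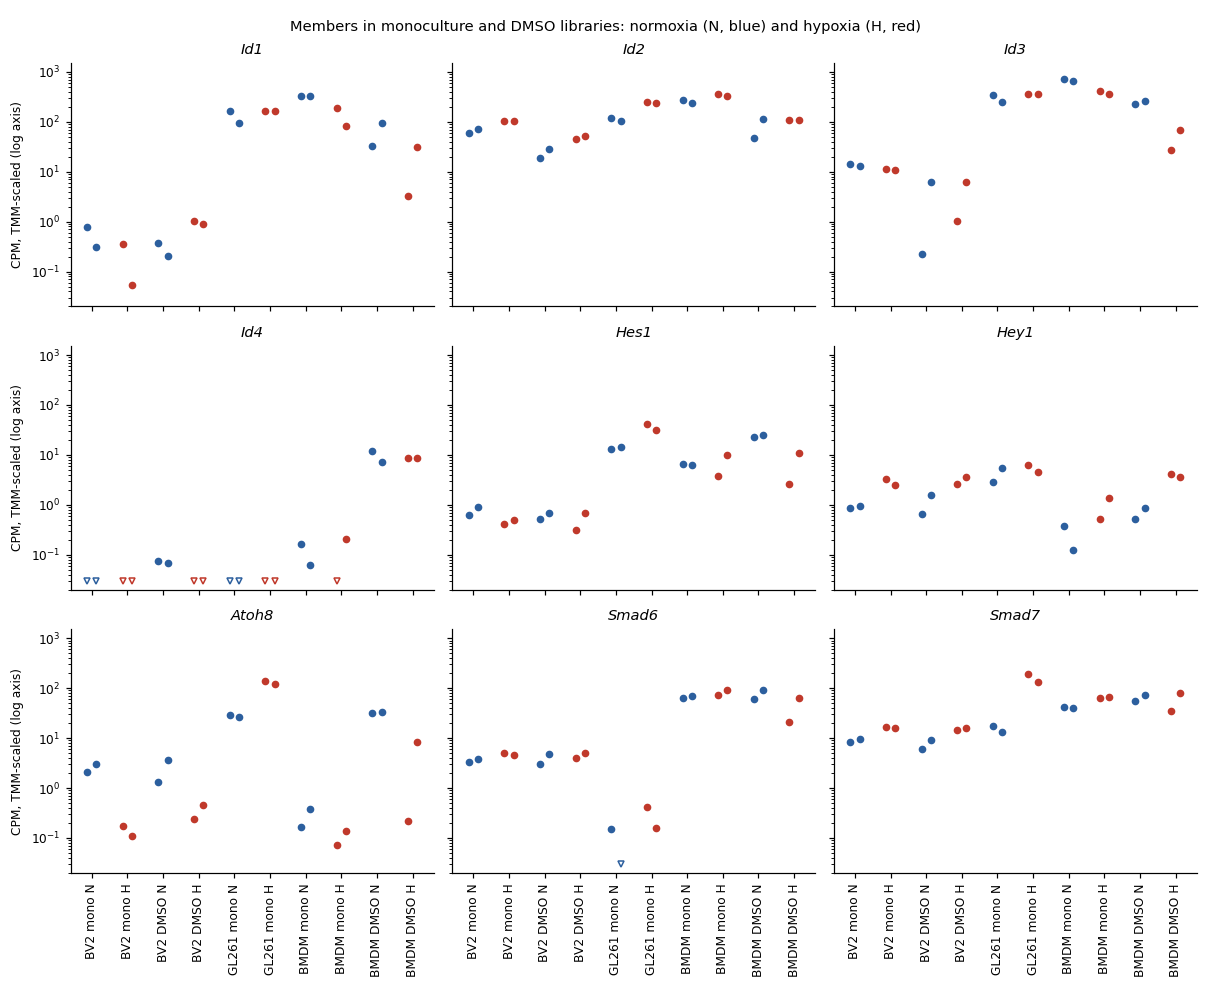
Level of each gene in each monoculture library of the first experiment and each DMSO library of the second, in CPM after TMM scaling on a log axis (N, normoxia in blue; H, hypoxia in red), by cell type. Each point is 1 library and open triangles at the foot of an axis are libraries with 0 counts. Id1 and Id3 lie lowest in the BV2 libraries, and Atoh8 and Smad7 are highest in the 2 hypoxic GL261 libraries.

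From here on, levels are CPM after TMM scaling (a factor per library that evens out composition) within a cell type and experiment, which compares 1 gene between libraries. A gene is called changed where its adjusted p in edgeR's quasi-likelihood test, Benjamini-Hochberg adjusted over all genes tested, is below 0.05, and "rose" and "fell" are kept for such calls. Fold changes are log2 ± SE. In bulk libraries fewer cells of a type and less RNA per cell cannot be told apart, and CPM gives shares of the RNA, not amounts per cell.

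Between the 2 lines in normoxic monoculture, all 8 members tested were called, 7 lower in BV2 and 1, Smad6, higher, in a fit of both lines that called 73.2% of all genes. This contrast is one the genes were picked for. Id1 was at 0.765 and 0.312 CPM in BV2 and at 166 and 93.3 CPM in GL261 cells, a log2 difference of -7.77 ± 0.38 (BV2 minus GL261). Id3 was at 14.3 and 13.1 against 343 and 249.6 CPM, a log2 difference of -4.31 ± 0.17. Hes1 was at 0.638 and 0.891 against 13.0 and 14.5 CPM, and Hey1 at 0.850 and 0.936 against 2.81 and 5.39 CPM. In none of the 8 tested members did values in one line overlap those in the other, and the share of all genes without overlap is not given here. The gap was narrower for Id2 (log2 -0.62 ± 0.12) and Smad7 (-0.65 ± 0.20), and the Smad7 call was lost without replicate 1 of either line (-0.57 without the BV2 library and -0.50 without the GL261 library). Smad6 had 3.27 and 3.88 CPM in BV2 and 3 and 0 counts in GL261 libraries. Id4 had 0 counts in every BV2 and GL261 library of the first experiment, each of which allows up to 0.207 CPM.

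Hypoxia in BV2 monocultures moved 4 of 8 tested members, raising Id2, Hey1 and Smad7 and lowering Atoh8, where 61.9% of all genes tested were called. Atoh8, a bHLH factor of the atonal family, stood at 2.08 and 3.03 CPM in normoxia (49 and 68 counts) and at 0.177 and 0.110 CPM in hypoxia (3 and 2 counts). Both hypoxic libraries were at or below the floor of 3 counts and both normoxic ones far above it. Summed over both libraries, 117 counts in normoxia stood against 5 in hypoxia, a level 17.9-fold lower with an exact 95% interval of 7.46- to 56.2-fold that covers counting error only. The fitted log2 change was -4.10 ± 0.47, which at such counts depends on the prior count.

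Among the Id genes of BV2 monocultures, Id2 went from 60.4 and 71.2 to 105 and 103 CPM, a log2 change of 0.66 ± 0.11, with no overlap. Id3 was at 14.3 and 13.1 CPM in normoxia and 11.4 and 10.8 CPM in hypoxia (-0.31 ± 0.17, not called). Id1 was scarce in both, with 18 and 7 counts in normoxia and 6 and 1 in hypoxia, and was not called. Without hypoxic replicate 1 it was called, at -3.13.

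Smad7, which recruits ubiquitin ligases to active receptors, rose from 8.37 and 9.62 to 16.3 and 16.2 CPM in BV2 monocultures (log2 0.85 ± 0.15). Smad6 was at 3.27 and 3.88 CPM in normoxia and 4.95 and 4.67 CPM in hypoxia (0.43 ± 0.23, not called). Hey1 rose from 0.850 and 0.936 to 3.30 and 2.53 CPM (1.70 ± 0.37), on 20 and 21 against 56 and 46 counts. Hes1 stayed below 1 CPM in all 4 libraries (-0.74 ± 0.50, not called). The 2 Notch-responsive repressors thus had log2 changes of opposite sign, of which only that of Hey1 was called.

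Hypoxia in GL261 monocultures raised 4 of 7 tested members, Id2, Hes1, Atoh8 and Smad7, and lowered none, where 44.6% of all genes were called. Smad7 went from 17.1 and 13.5 to 197 and 136 CPM, a log2 change of 3.44 ± 0.23 (95% interval 2.94 to 3.94). Atoh8 went from 29.4 and 26.4 to 141 and 119 CPM, a log2 change of 2.22 ± 0.14 (95% interval 1.91 to 2.53). In both genes the lowest hypoxic library was several times the highest normoxic one.

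Id2 in GL261 monocultures was at 118 and 102 CPM in normoxia and 255 and 241 CPM in hypoxia (1.17 ± 0.13), and Hes1 at 13.0 and 14.5 CPM against 40.7 and 32.1 CPM (1.40 ± 0.19). The 2 Id genes most abundant in this line, Id3 and Id1, were not called. Id1 was at 166 and 93.3 CPM in normoxia and 161 and 161 CPM in hypoxia, so the hypoxic libraries lay between the normoxic ones, and Id3 was at 343 and 249.6 CPM in normoxia against 359 and 364 CPM in hypoxia. Their log2 changes were 0.31 ± 0.21 and 0.29 ± 0.16, and both were called without normoxic replicate 1, the library with the higher values (0.79 and 0.54). Hey1 was at 2.81 and 5.39 CPM against 6.26 and 4.50 CPM, which overlap, and was called only without normoxic replicate 2 (0.97). Smad6 was too scarce in this line to be tested, with 3 and 0 counts in normoxia and 11 and 3 in hypoxia.

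The difference between the lines in the hypoxia effect was taken from the interaction term of the fit with both lines (BV2 minus GL261). Over monocultures it was called for 4 of 8 members, in a fit that called 37.4% of all genes and had a median interaction of 0.15 over all genes. Atoh8 differed most, by -6.23 ± 0.39, with the line effects of opposite sign. Smad7 differed by -2.49 ± 0.27, both lines moving upward and GL261 further. Hes1 differed by -2.04 ± 0.49, called upward in GL261 and not called in BV2. Hey1 differed by 1.39 ± 0.52, and this call was lost without any 1 of 5 libraries: either normoxic BV2 library (1.33 and 1.39), hypoxic BV2 replicate 1 (1.21), normoxic GL261 replicate 2 (0.75) or hypoxic GL261 replicate 2 (1.08). Without normoxic GL261 replicate 1 the interactions of Id1, Id2, Id3 and Smad6 were called as well (-2.16, -0.58, -0.80 and -5.05). The normoxic GL261 library left in that fit held no Smad6 counts, so the size of the Smad6 value depends on the prior count.

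**Figure D2:**
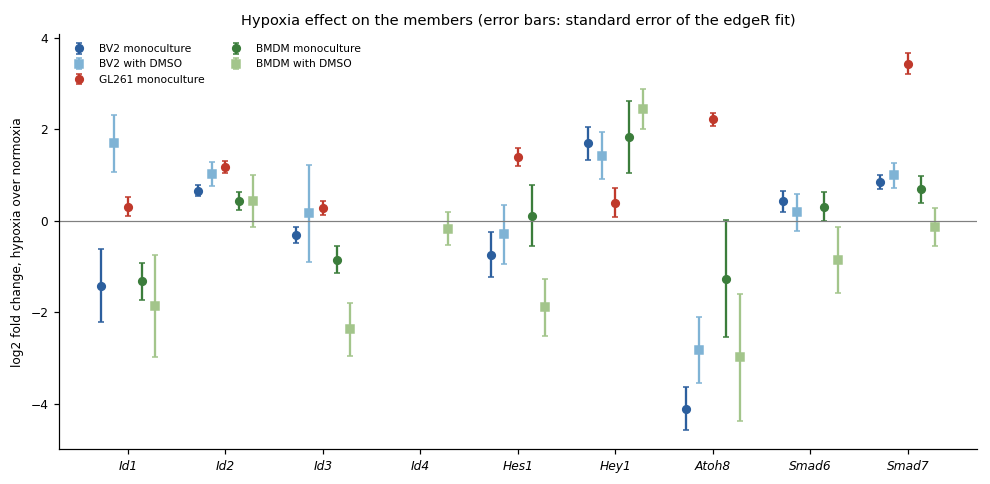
Log2 fold change of hypoxia over normoxia for each gene tested in BV2, GL261 and BMDM monocultures (circles) and in BV2 cells and BMDM with DMSO (squares). Bars are the standard error of the edgeR fit. Atoh8 lies at -4.10 in BV2 and at 2.22 in GL261 monocultures, and Smad7 is at 3.44 in GL261 monocultures.

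In BMDM monocultures hypoxia lowered 1 of 8 tested members, Id1, and raised none, where 23.9% of all genes were called. Id1 went from 336 and 334 to 187 and 81.9 CPM (-1.32 ± 0.40), and the call was lost without either normoxic library or without hypoxic replicate 2 (-1.38, -1.40 and -0.86). Id3 went the same way without being called, from 726 and 650.1 to 410.5 and 355 CPM (-0.85 ± 0.30, 95% interval -1.51 to -0.18). Both Id1 and Id3 had hypoxic values wholly below the normoxic ones. Id2 lay the other way, at 272 and 241 CPM in normoxia and 358 and 335 CPM in hypoxia (0.43 ± 0.20, not called).

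Smad7 in BMDM monocultures was at 41.2 and 39.4 CPM in normoxia and 64.3 and 65.8 CPM in hypoxia (0.69 ± 0.30, not called), and Smad6 at 64.2 and 69.6 CPM against 74.8 and 91.3 CPM. For both genes the hypoxic libraries lay above the normoxic ones. Hes1 was at 6.57 and 6.23 CPM in normoxia and 3.86 and 10.0 CPM in hypoxia, with the hypoxic libraries on either side of the normoxic ones. Hey1 and Atoh8 were near the floor. Hey1 had 7 and 2 counts in normoxia and 7 and 20 in hypoxia, and Atoh8 had 3 and 6 and then 1 and 2.

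Among BMDM in co-culture, with 3 libraries each, hypoxia lowered Id1 and Id3 and raised none of 8 tested members, where 34.8% of all genes were called. Id1 was at 270.1, 311 and 585 CPM in normoxia and 139, 113 and 161 CPM in hypoxia (-1.50 ± 0.33), without overlap. Id3 was at 657, 643 and 779 CPM in normoxia and 594, 257 and 399 CPM in hypoxia (-0.73 ± 0.25), also without overlap, and its call was lost on leaving out normoxic replicate 1 or 3 or hypoxic replicate 2 or 3 (-0.80, -0.64, -0.50 and -0.71). Id2 was at 246, 261 and 290.0 CPM in normoxia and 445, 289 and 355 CPM in hypoxia (0.45 ± 0.16, not called). Same-numbered libraries varied together here, and with the replicate number as a block Id2 was called (0.44). Smad6 was at 34.8, 45.3 and 64.0 CPM in normoxia and 62.3, 36.9 and 74.1 CPM in hypoxia, and Smad7 at 27.4, 32.6 and 39.1 CPM and 51.1, 27.0 and 59.9 CPM. Hypoxic replicate 2 was the lowest hypoxic library for both genes and the groups overlapped. Without that library Smad7 was called, at 0.74.

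Co-culture in normoxia lowered Id2 and Id3 in BV2 cells and raised none of 8 tested members, where 14.9% of all genes were called. Id3 fell from 14.3 and 13.1 CPM in monoculture to 3.11 and 1.92 CPM beside GL261 cells (-2.47 ± 0.21, 95% interval -2.91 to -2.03). The higher of the co-culture values was under the lower of the monoculture values by several times. Id2 fell from 60.4 and 71.2 to 45.1 and 42.4 CPM (-0.59 ± 0.12), a call lost without monoculture replicate 2 (-0.48).

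GL261 cells hold far more Id1, Id3, Hes1 and Atoh8 RNA than BV2 cells, so the GL261 RNA in each BV2 co-culture library was estimated. The estimate is the median, over 218 genes of GL261 cells, of their level in the library relative to GL261 monoculture at the same oxygen. It was 0.761% in normoxia (0.568 to 0.953%) and 2.21% in hypoxia (2.06 to 2.36%), against 0 to 0.0523% in BV2 monocultures. Multiplied by the GL261 monoculture level, that share would supply 87.7% and 88.0% of the Id3 counts in normoxic BV2 co-cultures. It would supply 82.2% and 86.6% of the Id1 counts, but 2.25% and 1.49% of the Id2 counts. Levels in co-cultured GL261 cells can differ, and shares at those levels are not given here. In normoxia Id3 was at 350 ± 31.4 TPM in GL261 co-cultures and 446 ± 34.7 in monocultures, and Id2 at 96.2 ± 4.52 and 123 ± 4.69. Id1 lay the other way, at 330 ± 15.6 and 298 ± 77.2 TPM.

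In hypoxic co-culture 4 of 8 members were called against hypoxic monoculture, Id1, Hes1 and Atoh8 upward and Id2 downward, where 15.7% of all genes were called. Atoh8 was at 0.177 and 0.110 CPM alone and 3.01 and 2.80 CPM beside GL261 cells (4.29 ± 0.47), a summed level 20.4-fold higher with a counting interval of 8.48- to 64.3-fold. At the GL261 monoculture level, the GL261 share would supply 91.4% and 113% of the Atoh8 counts in the 2 co-culture libraries. Atoh8 was lower in hypoxic GL261 co-cultures (117 ± 8.19 TPM) than in hypoxic GL261 monocultures (166 ± 29.7), so less would be supplied at the co-culture level. Hes1 was lower there too (39.3 ± 7.87 against 57.2 ± 12.8 TPM), and Id1 higher (508 ± 15.7 against 443 ± 25.5). All shares and subtractions here use the monoculture level. After subtraction of the expected partner counts the Atoh8 difference was 0.06 and not called, while Smad7, not called before (-0.13 ± 0.15), was called at -0.49. Id1 was at 0.354 and 0.0549 CPM alone and 3.17 and 6.30 CPM in co-culture (4.52 ± 0.59), of which the share would supply 108% and 62.4%. After subtraction it was 2.59, not called.

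Hes1 rose from 0.413 and 0.494 to 1.11 and 1.69 CPM (1.61 ± 0.47), with 69.0% and 52.3% of the counts to be had from partner RNA. Its call was lost after subtraction (0.39), with DESeq2 (1.63) and without either monoculture library or co-culture replicate 2 (1.42, 1.68 and 1.22). Id3 was at 11.4 and 10.8 CPM alone and 11.4 and 12.1 CPM in co-culture (0.09 ± 0.18, not called), and with partner counts subtracted the difference was called at -1.60. Id2, to which partner RNA would give 6.99% and 8.37%, was at 105 and 103 CPM alone and 75.2 and 72.2 CPM in co-culture (-0.50 ± 0.11). Id2 thus lay lower in co-culture at both oxygen levels, and Id3 did so in hypoxia once partner counts were taken off.

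**Figure D3:**
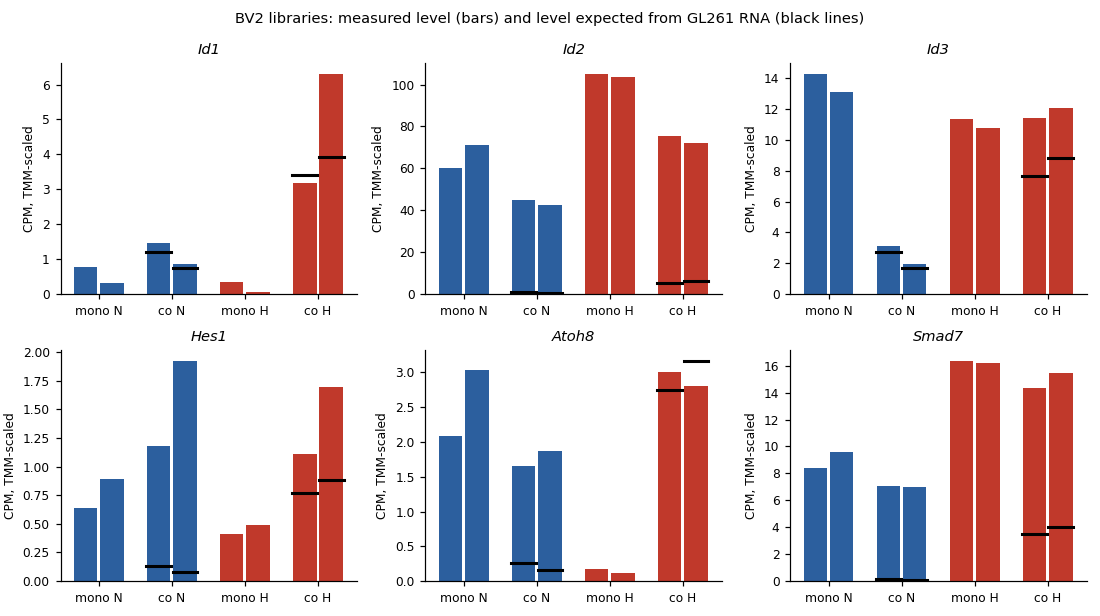
Measured level of 6 genes in each BV2 library of the first experiment (bars, 1 per library, in CPM after TMM scaling from 0; blue, normoxia; red, hypoxia; mono, monoculture; co, co-culture), with black lines at the level that GL261 RNA would give in each co-culture library. The line takes GL261 RNA at its monoculture level. It is near the top of the bar for Id1 and Id3 in normoxic co-culture and for Atoh8 in hypoxic co-culture. For Id2 it is far below the top in all 4 co-culture libraries.

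The effect of hypoxia within BV2 co-cultures was called upward for 6 of 8 members and downward for none, where 67.3% of all genes were called. Id2 went from 45.1 and 42.4 to 75.2 and 72.2 CPM (0.75 ± 0.12) and Smad7 from 7.05 and 6.99 to 14.3 and 15.5 CPM (1.08 ± 0.16). Id3 went from 3.11 and 1.92 to 11.4 and 12.1 CPM (2.25 ± 0.21, and 3.53 after subtraction of partner counts), and Id1 from 1.45 and 0.854 to 3.17 and 6.30 CPM (2.06 ± 0.45, not called after subtraction). Hey1 and Smad6 were also called (1.08 ± 0.36 and 0.84 ± 0.26), and both calls were lost without hypoxic co-culture replicate 2 (0.42 and 0.51). Atoh8 was not called (0.71 ± 0.31) and, after subtraction, was called downward at -3.38. Hes1 (-0.17 ± 0.39, not called) was then called at -1.34. Taken at the GL261 monoculture level, partner RNA would supply about all of the Atoh8 counts in hypoxic co-culture. It would supply most of the Id3 counts in normoxic co-culture. The subtracted values of Atoh8 and Id3 thus rest on small remainders and on the estimated share.

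The change of the hypoxia effect with co-culture was itself tested in BV2 cells, and was called for 2 of 8 members where 2.19% of all genes were called. Id3 had an interaction of 2.56 ± 0.27 and Atoh8 of 4.81 ± 0.58. With partner counts subtracted that of Id3 was 3.83 and still called, and that of Atoh8 was 0.73 and was not. The subtracted values rest on small remainders, of Id3 in normoxic and of Atoh8 in hypoxic co-culture, and on the estimated share. Id1 had an interaction of 3.47 ± 0.90, not called. Between the lines in co-culture, the hypoxia effect differed for 6 of 8 members, where 37% of all genes were called, among them Smad7 (-2.02 ± 0.28) and Id2 (-0.58 ± 0.17).

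GL261 cells showed 0 called members of 7 tested for co-culture against monoculture at either oxygen level, and 0 for its interaction with hypoxia, by edgeR and by DESeq2. All-gene shares called were 0.514%, 1.39% and 0%, and at an unadjusted p under 0.05 the counts of members were 1, 2 and 0. The largest differences were those of Atoh8, at -0.40 ± 0.14 in normoxia (95% interval -0.71 to -0.08) and -0.49 ± 0.13 in hypoxia (-0.78 to -0.19), and of Hes1 in hypoxia (-0.53 ± 0.19). BV2 RNA in these libraries was estimated at 0.772% and 0.230%.

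Within GL261 co-cultures hypoxia raised 5 of 7 tested members, where 52.4% of all genes were called. Atoh8 went from 22.2 and 20.3 to 98.5 and 87.0 CPM (2.13 ± 0.14), Smad7 from 14.0 and 13.0 to 149.8 and 105 CPM (3.24 ± 0.23) and Id2 from 90.5 and 100.5 to 262 and 266 CPM (1.47 ± 0.13). Hes1 went from 11.2 and 13.1 to 29.2 and 21.4 CPM (1.06 ± 0.20). These 4 genes were also called upward in GL261 monoculture, in other libraries. Both sets of libraries had been seen when the genes were chosen, so the recurrence is no independent support. The fifth, Id3 (0.40 ± 0.16), lost its call on leaving out any 1 of the 4 libraries (between 0.37 and 0.48).

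In BMDM, co-culture in normoxia gave 0 called members of 8 tested, and so did its interaction with hypoxia, where 1.64% and 0% of all genes were called by edgeR. DESeq2 called 0 and 0 members, and 2 and 0 had an unadjusted p under 0.05. Hes1 was at 6.57 and 6.23 CPM alone and 17.5, 18.8 and 25.1 CPM in co-culture (1.67 ± 0.62), with no overlap, and was called only with no filter on low counts (1.65). GL261 RNA in those libraries, estimated at 1.27 to 3.69%, would supply 0.984%, 1.60% and 2.01% of the Hes1 counts. In hypoxia 1 member, Atoh8, was called upward (4.37 ± 1.05), where 7.11% of all genes were called. Atoh8 had 1 and 2 counts alone and 6, 20 and 59 in co-culture, a summed level 22.7-fold higher with a counting interval of 7.51- to 112-fold. At its monoculture level GL261 RNA would give 376%, 305% and 163% of the co-culture counts, more than was measured in each library. The call was lost after subtraction, which with such an estimate could not turn out otherwise and does not show whether Atoh8 changed in BMDM. It was also lost without monoculture replicate 1, replicate 2 or co-culture replicate 3 (4.02, 4.86 and 3.25).

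The second experiment measured hypoxia in BV2 cells a second time, in other libraries and with DMSO, and 4 of 8 members were called, Id2, Hey1 and Smad7 upward and Atoh8 downward, where 37.5% of all genes were called. These are the genes called in BV2 monocultures of the first experiment, with the same signs, but both experiments had been seen when the genes were chosen. Id2 went from 18.6 and 28.1 to 44.7 and 50.8 CPM (1.03 ± 0.27), Smad7 from 6.11 and 8.98 to 14.3 and 15.8 CPM (1.00 ± 0.28) and Hey1 from 0.670 and 1.60 to 2.59 and 3.59 CPM (1.43 ± 0.51). Atoh8 went from 18 and 52 counts to 3 and 6 (-2.82 ± 0.72), a summed level 7.31-fold lower with a counting interval of 3.64- to 16.6-fold. No gene of these 4 overlapped between the groups, nor did 5 of the 8 tested members in all. The share of all genes without overlap is not given here. Each call depended on single libraries: those of Id2, Hey1 and Smad7 were lost without normoxic replicate 1 (0.79, 0.97 and 0.77), those of Hey1 and Smad7 without hypoxic replicate 2 (1.17 and 0.92), and that of Atoh8 without normoxic replicate 2 or hypoxic replicate 1 (-1.91 and -2.45).

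Panobinostat, added to hypoxic BV2 cells, lowered Id2 and raised Hes1 among 8 tested members, where 14.6% of all genes were called. Id2 went from 44.7 and 50.8 CPM with DMSO to 19.6 and 27.8 CPM with the drug (-1.01 ± 0.27), which is near the 18.6 and 28.1 CPM of normoxic cells. Hes1 went from 0.314 and 0.672 to 1.77 and 2.96 CPM (2.24 ± 0.57), on 4 and 9 against 22 and 41 counts. The Hes1 call was lost on leaving out any 1 of the 4 libraries (1.79 to 2.87), and the Id2 call without DMSO replicate 2 (-0.93) or either panobinostat library (-0.79 and -1.29).

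Hey1 lay at 2.59 and 3.59 CPM with DMSO and 5.80 and 10.3 CPM with panobinostat in BV2 cells (1.38 ± 0.45), without overlap. It was not called, and was with no filter on low counts (1.36). Smad7 was at 14.3 and 15.8 CPM with DMSO and 12.2 and 13.0 CPM with panobinostat (-0.25 ± 0.27, 95% interval -0.86 to 0.35). Both Smad7 values with the drug lay above those of normoxic DMSO cells (6.11 and 8.98 CPM). Atoh8 remained low, at 3 and 10 counts, and Smad6 was at 4.01 and 4.93 CPM with DMSO and 2.90 and 4.97 CPM with the drug, which overlap.

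**Figure D4:**
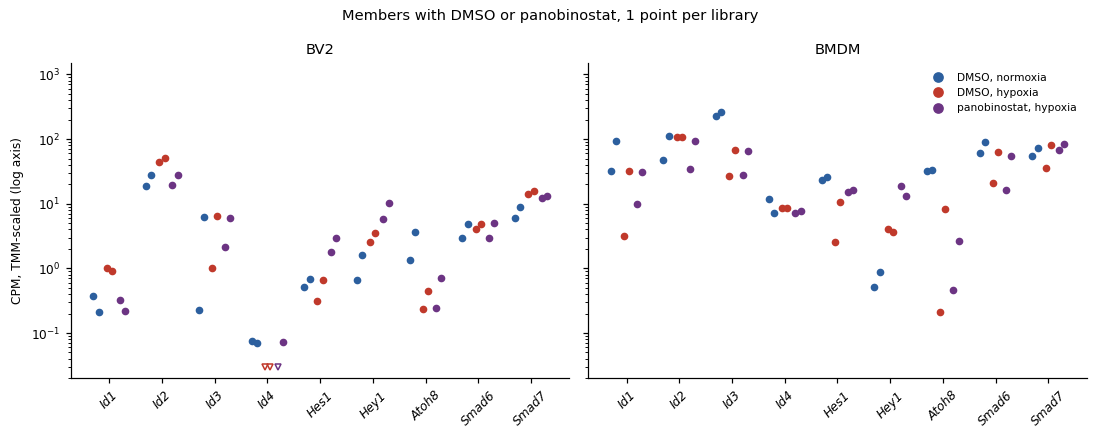
Level of the 9 genes in BV2 cells (left) and BMDM (right) of the second experiment, in CPM after TMM scaling on a log axis, 1 point per library, with open triangles for 0 counts. Hey1 is highest with panobinostat in both cell types, and Id2 in BV2 cells lies near its normoxic level with the drug.

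In BMDM of the second experiment edgeR called 0 of 9 members for hypoxia and 0 for panobinostat, where 0.483% and 0% of all genes were called. DESeq2 called 3 and 1 members, and 3 and 1 had an unadjusted p under 0.05. With the replicate number as a block edgeR called 3 and 1. Hey1 was at 0.512 and 0.882 CPM in normoxia, 4.07 and 3.66 CPM in hypoxia and 18.9 and 13.2 CPM with panobinostat, 3 ranges that do not overlap. Its log2 changes were 2.45 ± 0.44 for hypoxia and 2.05 ± 0.41 for panobinostat, and DESeq2 called both. Id3 was at 225 and 259 CPM in normoxia and 26.8 and 66.9 CPM in hypoxia (-2.37 ± 0.58), and Hes1 at 23.3 and 25.6 CPM in normoxia and 2.57 and 10.7 CPM in hypoxia (-1.89 ± 0.63). DESeq2 called both of these too. With panobinostat Hes1 was at 15.3 and 16.4 CPM and Id2 at 34.7 and 92.6 CPM, against 108 and 108 CPM for Id2 with DMSO.

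The difference between BV2 cells and BMDM was called by edgeR for 0 members for hypoxia with DMSO and for 0 members for panobinostat, where 0.664% and 0.0251% of all genes were called. DESeq2 called 0 and 0 members, and 2 and 0 had an unadjusted p under 0.05. The Hey1 interaction for panobinostat was -0.68 ± 0.65 (95% interval -2.12 to 0.77, BV2 minus BMDM). That interval spans more than a log2 unit on either side of its centre, so it does not show that the cell types respond alike.

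Id4 had more counts in every BMDM library of the second experiment than in any of the first, and Atoh8 was at a higher level in the normoxic DMSO cultures of the second. Id4 had 0 to 11 counts in the 10 BMDM libraries of the first experiment and 164 and 116 counts in normoxia, 121 and 77 in hypoxia and 110 and 106 with panobinostat in the second, which was 8.64 and 8.53 CPM in hypoxia and 7.25 and 7.70 CPM with panobinostat. Atoh8 was below 0.5 CPM in BMDM monocultures of the first experiment and at 31.8 and 33.6 CPM in normoxic DMSO cultures of the second, then at 0.214 and 8.31 CPM in hypoxia and 0.462 and 2.62 CPM with panobinostat. The lower library of each of the last 2 groups was below 0.5 CPM as well. Both hypoxic groups lay below the normoxic one (-2.98 ± 1.39, not called). The BMDM libraries of the 2 experiments were counted in separate tables and these levels were not tested against each other.

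Markers of other cells differed between the same libraries. The summed level of the 6 fibroblast or stromal markers was 20453 to 23237 CPM in normoxic DMSO libraries, 2674 to 13839 CPM in hypoxic DMSO and 8758 to 14357 CPM in panobinostat libraries. In BMDM monocultures of the first experiment it was 133 to 170.0 CPM in normoxia and 105 to 226 CPM in hypoxia. The 6 markers were uneven. In normoxic DMSO libraries the means were 12934 CPM for Col1a1, 6335 for Col1a2, 2293 for Col3a1 and 281 for Pdgfrb. Those of Dcn and Lum were 2.81 and 0.0347 CPM. Col1a1 was at 1514 and 8411 CPM in the 2 hypoxic DMSO libraries, whose Atoh8, Id1, Id3, Smad6 and Hes1 levels were likewise lower in replicate 1. Id2 and Id4 were at similar levels in both of these libraries, and Hey1 was slightly higher in replicate 1. The myeloid receptor gene Csf1r was at 2828 and 2611 CPM in normoxic DMSO, 1129 and 1839.5 in hypoxic DMSO and 130.1 and 736 CPM in panobinostat libraries. The 10 myeloid markers summed to 6804 to 8651, 2603 to 4678 and 723 to 2187 CPM in those groups. The part of these markers in the BMDM results of the second experiment was not tested.

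**Figure D5:**
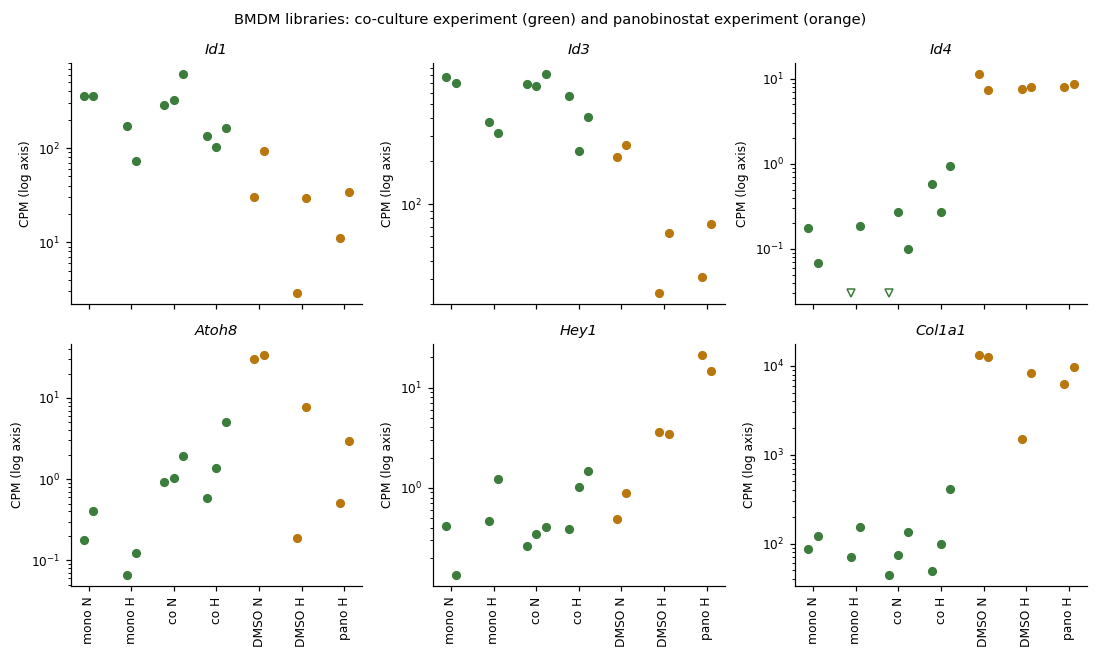
Level of 5 of the genes and of the stromal marker Col1a1 in each BMDM library, in CPM without TMM scaling on a log axis, for the first experiment (green; mono, monoculture; co, co-culture) and the second (orange; pano, panobinostat), with N for normoxia, H for hypoxia and open triangles for 0 counts. Id4 and Col1a1 are higher in each of the 6 libraries of the second experiment than in any of the 10 of the first.

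The other genes of the pathways were taken from 11 lists of BMP, TGF-β and Notch components, of which 100 of 101 genes were found. In BV2 monocultures hypoxia raised 24 and lowered 12 of the 64 tested, with a median log2 change of 0.17; over all genes 30.9% rose and 31% fell around a median of 0.00. Of 12 receptor genes 6 rose and 0 fell, led by Acvrl1, a type I receptor for BMP9 and BMP10, which went from 10.8 to 47.6 CPM (log2 2.14, edgeR adjusted p = 7.91e-09). In DMSO-treated BV2 cells of the second experiment, where hypoxia raised 17.2% and lowered 20.2% of all genes, 1 of 11 receptor genes rose, the coreceptor gene Eng (1.84), and 1 fell, Acvr2a (-0.95). The median log2 change of the receptor list was 0.45 in the first experiment and -0.27 in the second, and Acvrl1 was at 0.79 there, not called. In the monocultures of the first experiment 2 of the 5 signal-carrying SMADs fell and 0 rose. Of 10 corepressors and ubiquitin ligases 4 rose and 1 fell, the largest changes being Nedd4l (1.67), a ligase that acts with Smad7, and Tgif1 (1.28), a SMAD corepressor. Of 16 genes of Notch processing and its nuclear partners 8 rose and 4 fell, with Lfng, which glycosylates Notch, at -2.30 and Rbpj, the DNA-binding partner of Notch, at 0.94.

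GL261 monocultures had 23 listed genes higher and 15 lower of 76 tested in hypoxia, with a median of 0.11 against -0.03 over all genes, of which 23.2% rose and 21.4% fell. Of the 10 corepressors and ligases 8 rose and 0 fell, led by Tgif1 (1.84), Skil (1.80) and Ski (1.25), which restrain SMAD-driven transcription, and the list's median was 0.76. Of 6 signal-carrying SMADs 3 rose, Smad9 (1.95), Smad3 (1.13) and Smad5 (0.40). Among other Notch targets Nrarp, itself induced by Notch, fell from 20.3 to 3.08 CPM (log2 -2.74, edgeR adjusted p = 4.19e-06) while Hes1 rose. The 3 E protein genes gave 0 calls in GL261 monocultures and 1, downward, in BV2.

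In BMDM monocultures 5 of 70 listed genes rose and 4 fell, around a median of 0.17 (0.03 over all genes, of which 13.3% rose and 10.6% fell). Lfng fell (log2 -1.77, edgeR adjusted p = 0.00218) and Rbpj rose (1.30, adjusted p = 1.42e-04), as each did in BV2 and GL261 monocultures. The receptor gene Notch1 fell (-1.11).

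For co-culture of BV2 cells in normoxia 3 of 64 listed genes were higher and 18 lower, with a median of -0.25 against -0.02 over all genes, of which 5.77% were higher and 9.14% lower. The 3 higher ones were the receptor gene Acvrl1 (0.70), the ligand gene Tgfb2 (2.54) and the coreceptor gene Rgma, which was at 0 CPM in monoculture. The level of Rgma went from 0 to 0.785 CPM in normoxia and from 0.0275 to 1.58 CPM in hypoxia, and that of Tgfb2 from 0.129 to 0.812 and from 0.234 to 2.98 CPM. The estimated GL261 share of these libraries was 0.761% in normoxia and 2.21% in hypoxia, and its part in these genes was not tested. Of 16 Notch processing genes 6 fell and 0 rose, among them Maml3 (-0.73) and Lfng (-0.63), and the pseudoreceptor Bambi fell (-1.10, edgeR adjusted p = 2.94e-04), as did the receptor genes Bmpr2 (-0.66) and Acvr1 (-0.59). With panobinostat in hypoxic BV2 cells 7 of 62 listed genes rose and 0 fell, where 7.21% of all genes rose and 7.39% fell. They were the ligand gene Gdf11 (3.06), Hes7 (3.06), the antagonists Nbl1 (2.41) and Fstl3 (1.81), the Groucho gene Tle2 (1.67) and the Notch proteases Psen2 (1.07) and Adam10 (0.92).

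The genes most like each member were found over the 38 libraries, from log2 CPM centred on the mean of the cell type in its experiment, among the 11266 genes tested in all 5 cell-type fits. The libraries share conditions, so these values only describe. Smad7 was most like Cass4 (Pearson r 0.93) and Hivep1 (0.91), Hey1 most like Cystm1 (0.89) and Gtf2e2 (0.89), and Id2 most like Ubn1 (0.86) and Ppp4r3b (0.82). Atoh8 was most like Nacc2 (0.80) and Phldb1 (0.77), Hes1 like Tgm2 (0.79) and Cyp4f18 (0.74), Id3 like Acadvl (0.72) and Tjp3 (0.68), and Id1 like Cspg4 (0.72) and Axl (0.67). Id4 and Smad6 were not tested in all 5 fits and have no such neighbours here.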

How the data were processed

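PolyA-selected, stranded libraries were sequenced as paired reads and deposited by the authors as 3 tables of raw counts, whole numbers per Ensembl gene with no normalization. Per the submitters' processing notes the tools included Trimmomatic 0.36, STAR 2.6 and HTSeq 0.9.1 with the mm10 build, while the annotation release and the strand setting are not given in the sources used here. From these counts edgeR 4.0.16 (R 4.3.3) fitted 1 mean per group within each cell type and experiment, with TMM factors, the filterByExpr filter (minimum count 10, minimum total 15) and a quasi-likelihood F test, Benjamini-Hochberg adjusted over all genes tested. BV2 was set against GL261, and BV2 against BMDM, in fits that held both cell types. DESeq2 1.42.0, other size factors, no filter, the replicate number as a block, leaving out each library, and subtraction of expected partner counts were the alternatives. Where 1 library of a group is left, it is assumed to vary like the others.

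The 9 genes, the pathway and marker lists and the tests were chosen with earlier results of these data known. Named pathway genes were up to 6 per list and cell type, the called ones with the largest absolute log2 change. Genes used for the partner share reached 20 CPM or more in monocultures of the partner and 100 times or more their level in the cell's own. In BMDM co-cultures same-numbered libraries deviated together (r 0.455, 0.244 and 0.407 for the 3 pairs), so the numbers were taken to pair them. Other groups have 2 pairs. Their same-numbered libraries had r of 0.336 to 0.593 in BMDM and 0.154 to 0.389 in BV2 cells of the second experiment. Whether their numbers pair cultures is not known. The main fits ignore the number in all groups. Of the 9 genes 7 passed the filter in all 5 fits, Id4 passed it only in BMDM of the second experiment and Smad6 everywhere but in GL261. No 75-base stretch of their transcripts recurred in another gene, and the antisense genes that overlap Id4 had 0 to 2 counts. Symbols came from the GENCODE M21 annotation (GRCm38), which matched 55141 of the 55487 identifiers.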

Additional observations from a re-analysis of the deposited data

Results flagged for a closer look

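Among the values tested for a difference between groups, 12 interactions stood out. In BV2 cells the hypoxia effect differed between co-culture and monoculture for Id3, by 2.56, and for Atoh8, by 4.81 on the log2 scale. With the estimated partner counts subtracted, Id3 was at 3.83 and still called, and Atoh8 at 0.73 and not called. Partner RNA would supply most of the Id3 counts in normoxic co-culture, so its subtracted value rests on a small remainder. DESeq2 called Id3 and not Atoh8, to which it gave no adjusted p. Id3 was lower in normoxic co-culture than in the other 3 groups of BV2 libraries of that experiment, and Atoh8 was lowest in hypoxic monoculture.

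Between the lines, BV2 minus GL261, the hypoxia effect in monoculture differed for Atoh8 by -6.23, Smad7 by -2.49, Hes1 by -2.04 and Hey1 by 1.39, around a median of 0.15 over all genes tested. In co-culture it differed for Id1 by 1.94, Id3 by 1.98, Id2 by -0.58, Hes1 by -1.10, Atoh8 by -1.29 and Smad7 by -2.02, around a median of 0.256. With the estimated partner counts subtracted, an alternative chosen after seeing the data, these were 2.40 for Id1, 3.10 for Id3, -0.81 for Id2, -2.43 for Hes1, -5.53 for Atoh8 and -2.55 for Smad7, of which Id1 was no longer called. Taken at the GL261 monoculture level, the estimated partner RNA would supply 91.4% and 113% of the Atoh8 counts in hypoxic BV2 co-cultures. It would supply most of the Id3 counts in normoxic ones. The subtracted values of both genes thus rest on small remainders. The Id1 call in co-culture was lost without normoxic BV2 co-culture replicate 2 (1.37) or hypoxic replicate 2 (1.35). That of Hes1 was lost without normoxic BV2 replicate 2, hypoxic BV2 replicate 1, normoxic GL261 replicate 1 or hypoxic GL261 replicate 1 (-0.88, -0.84, -1.18 and -1.06). The genes were chosen with the contrast between the lines in view, so these differences describe the libraries.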

How the results depend on the processing

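Of 1895 values of single genes under an alternative 1777 kept their side of the threshold, 61 gained a call, 55 lost one and 2 reversed. Among the 1777, 1661 kept their direction and 116, called under neither setting, changed sign. Of 239 counts of called members 202 stayed within 1.5 times. DESeq2 called 1 member for the change of the hypoxia effect with co-culture in BV2 (2 by edgeR), 2 for hypoxia in BMDM monoculture (1 by edgeR), and 3 for hypoxia and 1 for panobinostat in BMDM of the second experiment (0 each by edgeR). With no filter on low counts the counts were 3 for hypoxia in BMDM monoculture, 1 and 2 for BMDM co-culture in normoxia and hypoxia, 5 for hypoxia and 3 for panobinostat in BMDM of the second experiment, and 2 for the difference between BV2 and BMDM in hypoxia. With the replicate number as a block they were 1 for GL261 co-culture in hypoxia (Atoh8), 2 for hypoxia in BMDM monoculture, 3 and 1 for hypoxia and panobinostat in BMDM of the second experiment and 2 for the difference between BV2 and BMDM in hypoxia. Whether these numbers pair cultures is not known. Mean correlations were 0.0335 in BV2 cells, 0.18 in GL261 cells and 0.148 in BMDM of the first experiment. They were 0.302 and 0.446 in BV2 cells and BMDM of the second.

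Leaving out 1 library at a time gave 0 to 1 called members for hypoxia in BMDM monoculture, 1 to 4 in BMDM co-culture, 0 to 1 for BMDM co-culture in hypoxia, 1 to 2 for BV2 co-culture in normoxia, 1 to 3 for hypoxia and 0 to 1 for panobinostat in BV2 cells of the second experiment, 0 to 1 for hypoxia in BMDM of the second experiment, 3 to 8 for the difference between BV2 and GL261 monocultures and 0 to 3 for that between BV2 and BMDM in hypoxia. Subtracting partner counts turned Atoh8 in BV2 co-culture hypoxia to -3.38 and Id3 in BV2 hypoxic co-culture to -1.60, left 1 called interaction in BV2 and 0 called members for BMDM co-culture in hypoxia. For Atoh8 the partner counts expected from the GL261 monoculture level were about those measured in hypoxic BV2 co-cultures. They were more than those measured in hypoxic BMDM co-cultures. For the difference between lines in co-culture this subtraction was chosen after seeing the data. The cause was not tested for any of the alternatives.

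Counts limit Id1, Hes1 and Atoh8 in BV2 cells and Atoh8, Hey1 and Id4 in BMDM monocultures, where libraries often held under 30 counts. With 2 libraries a group, and 0% of all genes called for panobinostat in BMDM, an uncalled gene there is not shown to be unaffected.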

Other observations

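Id3 differed widely between replicates of BV2 cells in the second experiment. It had 3 and 91 counts in the 2 normoxic DMSO libraries (0.223 and 6.33 CPM), 13 and 85 in the hypoxic DMSO libraries (1.02 and 6.35 CPM) and 27 and 82 with panobinostat (2.17 and 5.91 CPM). The library numbered 1 was the lower one in each of the 3 groups, while Id2 in the same libraries was at 18.6 and 28.1, 44.7 and 50.8 and 19.6 and 27.8 CPM.

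Id1 in BV2 cells had 5 and 3 counts in normoxic DMSO, 13 and 12 in hypoxic DMSO and 4 and 3 in panobinostat libraries. Its fitted hypoxia effect was 1.70 ± 0.62 there and -1.41 ± 0.79 in the monocultures of the first experiment, neither of them called, and the difference between the experiments was not tested.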
